A study of Rattus norvegicus with 12 samples.

Results

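The 10 genes described here code for the mTOR kinase, its core partners, proteins that restrain it and substrates of the kinase (Rps6kb1 and Eif4ebp1). They were taken by gene symbol from a table of 30206 genes: Mtor, Rptor, Rictor, Tsc1, Tsc2, Rps6kb1, Ddit4, Deptor, Sesn1 and Eif4ebp1. The first 6, which include the S6 kinase gene Rps6kb1, are treated as complex members, and the last 4 as inhibitors. Among the inhibitors, the product of Eif4ebp1 represses translation and not the kinase itself. All 10 passed the low-count filter, which kept 14599 genes. Messenger RNA was sequenced from the pubocaudalis, a pelvic floor muscle, of 3-month-old female Sprague-Dawley rats. Every animal had undergone simulated birth injury (SBI), a balloon distention of the vagina in late pregnancy, and no uninjured group was sequenced. In 1wk SBI and 3wk SBI the pups were taken away after delivery, and muscle was collected 1 or 3 weeks after injury. In 1wk SBI + Lac and 3wk SBI + Lac the dams went on nursing (Lac, lactation) until collection at the same times. Each group had 6 rats, and the RNA of 2 rats was pooled per library, so every n of 3 below counts pools.

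mTOR (mechanistic target of rapamycin) is a kinase that couples growth to nutrients, hormones and energy. With Raptor it forms mTORC1, which drives protein synthesis through S6 kinase and by releasing the 4E-BP repressors from eIF4E, and with Rictor it forms mTORC2, which phosphorylates Akt. The TSC complex of Tsc1 and Tsc2 switches off Rheb, the activator of mTORC1, so both genes restrain the pathway although they are grouped here with the complexes. In skeletal muscle the pathway is known for its part in fiber growth and in the loss of mass during fasting, disuse and glucocorticoid excess. Much of its control is by phosphorylation, and messenger levels do not measure kinase activity.

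Total counts ran from 30862144 to 51662983 at 1 week and from 10082734 to 75634391 at 3 weeks, and every 1wk SBI library was deeper than every 1wk SBI + Lac library. The 1-week values were whole counts and the 3-week values carried decimals, so comparisons between the time points mix time with counting. Levels are normalized CPM, library-scaled counts after TMM correction, which correct for depth and composition but not for gene length. They are therefore compared between groups and not between genes. Myofiber genes were abundant in all libraries of this muscle. The 9 mature myofiber markers, among them Acta1 and Myh4, summed to 86570 to 137800 CPM in 1wk SBI. In 1wk SBI + Lac they summed to 138000 to 164700. At 3 weeks the sums were 133600 to 180100 without and 197200 to 224700 with lactation. Lactating and non-lactating libraries did not overlap in this sum at either time, and in such bulk samples fewer cells of a type and less RNA per cell cannot be told apart.

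The largest differences with lactation among the 10 genes were those of the inhibitors Ddit4 and Sesn1 at 1 week and Sesn1 and Eif4ebp1 at 3 weeks, and Eif4ebp1 at 3 weeks passed the test. At 1 week all 10 genes had a higher fitted level with lactation, with a median log2 difference of 0.28 against 0 over all genes tested. None of the 10 passed an adjusted p of 0.05 in edgeR, which called 0.569% of all genes at 1 week. At an unadjusted p under 0.05 there were 6 of 10, against 18.9% of all genes. DESeq2 called 1 of 10 on all 12 libraries (Sesn1), where it called 5.55% of all genes, and 2 on the compared libraries (Ddit4 and Sesn1), where it called 9.2%. At 3 weeks 9 of 10 were higher, with a median of 0.21 against -0.02 over all genes. This fell to 7 of 10 without replicate 3 of 3wk SBI (median 0.11) or replicate 1 of 3wk SBI + Lac (0.13). The other fits with 1 library left out gave 9, with medians of 0.18 to 0.25. Eif4ebp1 was the single gene called by edgeR at 3 weeks over all 12 libraries, where 2.54% of all genes were called. DESeq2 called 3 of 10 on all 12 libraries (Tsc2, Sesn1 and Eif4ebp1) and 2 on the compared ones (Sesn1 and Eif4ebp1), against 7.62% and 5.39% of all genes. The 4 inhibitors had a median log2 difference of 0.47 at 1 week (0.27 to 0.66) and 0.46 at 3 weeks (0.01 to 0.65). At 3 weeks Sesn1 and Eif4ebp1 were the high ones, with Ddit4 at 0.31 and Deptor at 0.01. The 6 complex members had 0.17 (0.01 to 0.39) and 0.15 (-0.10 to 0.37). Their highest values were those of the restraining genes Tsc1 at 1 week and Tsc2 at 3 weeks. The gap between these role groups was not tested. With totals alone and no TMM factor, 6 of 10 were higher at 1 week and 5 at 3 weeks, but the median of all genes then moved to -0.25 and -0.20, and 10 and 9 of the 10 lay above it.

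**Figure D1:**
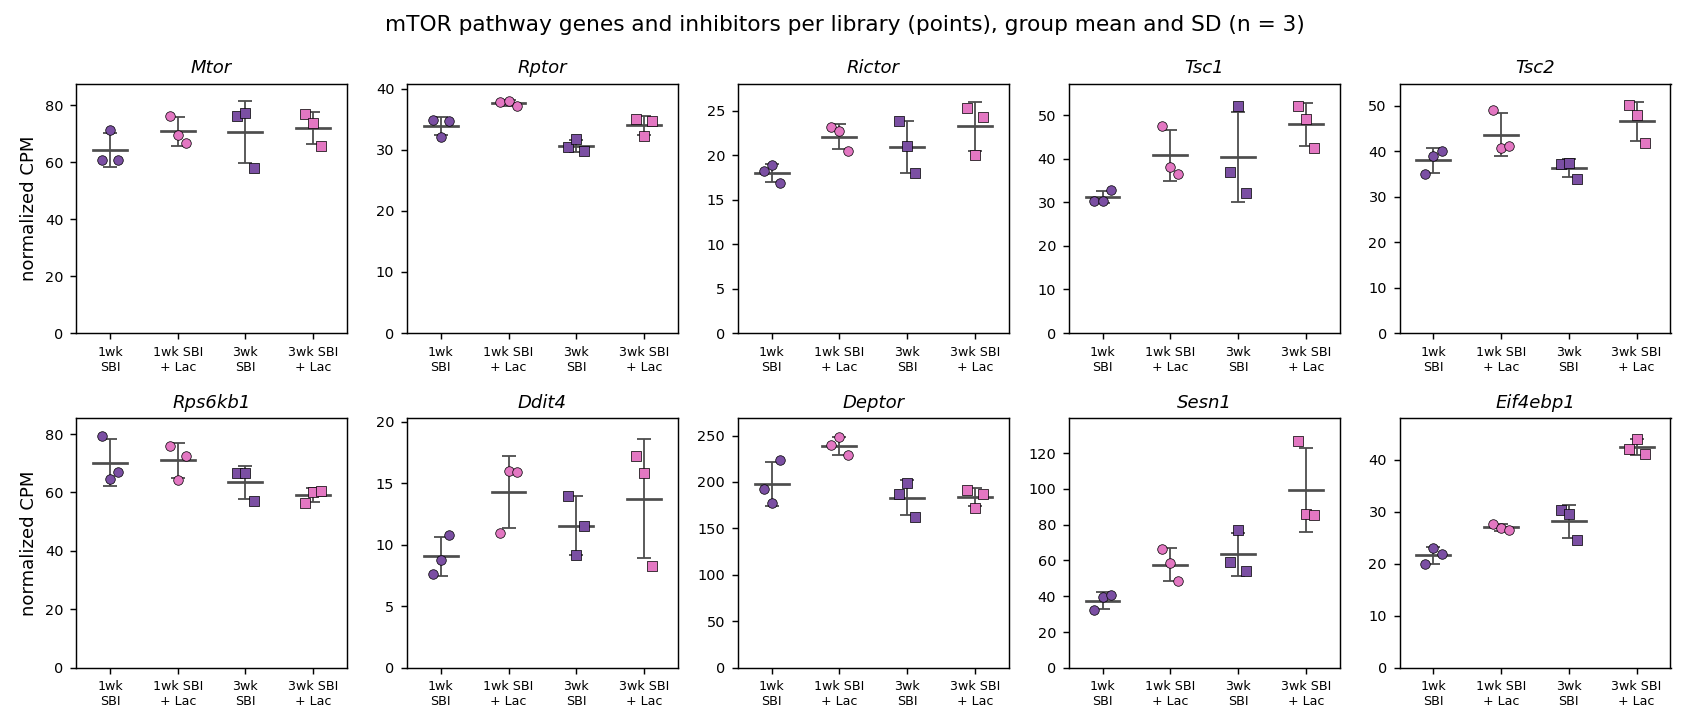
Normalized CPM (y axis, from 0) of each gene in the 12 libraries by group (x axis), with points for libraries and bars for the mean and SD (n = 3). Eif4ebp1 and Sesn1 show higher lactating libraries at both times, while Mtor and Rps6kb1 overlap at both.

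Mtor (ENSRNOG00000009615), the catalytic subunit of both complexes, stood at 60.8, 71.2 and 60.9 CPM in the 1wk SBI libraries and at 76.3, 69.4 and 66.6 in 1wk SBI + Lac. At 3 weeks it stood at 76.3, 77.3 and 57.9 without and at 76.8, 73.6 and 65.6 with lactation. The groups overlapped at both times. The log2 difference with lactation was 0.14 (95% interval -0.12 to 0.40) at 1 week and 0.04 (-0.22 to 0.30) at 3 weeks, with edgeR adjusted p of 0.56 and 0.891.

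Rptor (ENSRNOG00000003821) codes for Raptor, the mTORC1 scaffold that recruits substrates. Its levels were 34.8, 32.1 and 34.7 CPM in 1wk SBI against 37.8, 38.0 and 37.2 with lactation, and 30.5, 31.7 and 29.8 in 3wk SBI against 35.0, 32.2 and 34.7 with lactation. The lactating libraries lay above the others at both times by a narrow margin. Its log2 difference was 0.15 at each time (SE 0.08 and 0.09, edgeR adjusted p 0.333 and 0.345), so the step was small and did not pass the test. Rptor also had the smallest spread of the 10 after centring on each time point, with an SD of 0.09 on the log2 scale.

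Rictor (ENSRNOG00000011341), the scaffold of mTORC2, stood at 18.2, 18.9 and 16.9 CPM in 1wk SBI and at 23.1, 22.7 and 20.4 in 1wk SBI + Lac. The groups did not overlap at 1 week, and the log2 difference was 0.29 (SE 0.12, edgeR adjusted p 0.202). At 3 weeks the values were 23.8, 20.99 and 18.0 without and 25.3, 20.1 and 24.3 with lactation, which overlapped (log2 difference 0.16, SE 0.13).

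Tsc1 (ENSRNOG00000011470) codes for hamartin, which stabilizes the TSC complex. It stood at 30.3, 30.4 and 32.7 CPM in 1wk SBI and at 47.5, 38.2 and 36.6 in 1wk SBI + Lac, with no overlap and a log2 difference of 0.39 (SE 0.15, edgeR adjusted p 0.187). At 3 weeks 1 non-lactating library reached 52.0 beside 37.0 and 32.0, and the lactating libraries at 52.2, 49.0 and 42.5 overlapped with them. Tsc2 (ENSRNOG00000011375), which codes for tuberin, the subunit that inactivates Rheb, showed its wider gap at 3 weeks. Its levels were then 37.2, 37.5 and 33.9 CPM without and 50.1, 47.9 and 41.8 with lactation, with no overlap. The log2 difference was 0.37 (SE 0.11, 95% interval 0.14 to 0.60) with an edgeR adjusted p of 0.0769, and DESeq2 on all 12 libraries called it (adjusted p 0.0355). At 1 week Tsc2 stood at 34.9, 39.0 and 40.0 without and 49.0, 40.6 and 41.0 with lactation, a log2 difference of 0.20 (edgeR adjusted p 0.323).

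Rps6kb1 (ENSRNOG00000003919) codes for p70 S6 kinase, the mTORC1 substrate that phosphorylates ribosomal protein S6. It was the gene whose level differed least with lactation at 1 week: 79.4, 64.5 and 66.9 CPM against 76.0, 64.3 and 72.6, a log2 difference of 0.01 (95% interval -0.21 to 0.24). At 3 weeks the levels were 66.6, 66.8 and 56.9 without and 56.3, 60.3 and 60.6 with lactation. It was the 1 gene of 10 with a lower fitted level in lactating libraries (log2 difference -0.10, SE 0.11, edgeR adjusted p 0.627), and the groups overlapped.

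Eif4ebp1 (ENSRNOG00000012582) codes for 4E-BP1, which binds the cap-binding factor eIF4E and blocks translation until mTORC1 phosphorylates it. At 3 weeks it stood at 30.4, 29.5 and 24.6 CPM in 3wk SBI and at 42.1, 44.0 and 41.1 in 3wk SBI + Lac. All lactating libraries lay more than 10 CPM above the highest non-lactating one. The gene rose 1.52-fold with lactation, from 28.1 ± 3.13 to 42.4 ± 1.47 CPM (SD, n = 3), a log2 difference of 0.60 (SE 0.10, 95% interval 0.39 to 0.82, edgeR adjusted p 0.00934). The call held with each library left out in turn (edgeR adjusted p 0.0126 to 0.0465) and was lost with library totals alone (0.0664). At 1 week the levels were 19.9, 23.0 and 21.9 without and 27.6, 26.8 and 26.5 with lactation. These groups did not overlap either, and the log2 difference of 0.32 (SE 0.10) had an edgeR adjusted p of 0.108. The difference fell short of the cutoff of 1 on the absolute log2 scale that the study also applied, and 0 of 10 members passed both cutoffs at either time, where 0.253% and 0.74% of all genes passed both at 1 and 3 weeks.

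Sesn1 (ENSRNOG00000000302) codes for sestrin 1, a stress-induced protein that dampens mTORC1 through GATOR2 and AMPK. It stood at 32.2, 39.6 and 40.7 CPM in 1wk SBI and at 66.2, 58.7 and 48.3 in 1wk SBI + Lac. At 3 weeks it stood at 59.2, 77.1 and 54.3 without and at 126.8, 86.0 and 85.5 with lactation. The lactating libraries lay above the others at both times, and 1 of them at 3 weeks stood well above the rest of its group. The log2 difference was 0.62 at 1 week (SE 0.18, 95% interval 0.24 to 1.00, edgeR adjusted p 0.0944) and 0.65 at 3 weeks (SE 0.18, 0.27 to 1.03, 0.0669). Neither passed in edgeR. DESeq2 on all 12 libraries called Sesn1 at 3 weeks (adjusted p 0.0166), and so did edgeR without replicate 2 of 3wk SBI (adjusted p 0.0404, log2 difference 0.82). Without replicate 1 of 3wk SBI + Lac the difference was 0.43. The order of the group means was 1wk SBI at 37.5, 1wk SBI + Lac at 57.7, 3wk SBI at 63.5 and 3wk SBI + Lac at 99.4 CPM, and the middle groups overlapped.

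Ddit4 (ENSRNOG00000057078) codes for REDD1, which activates the TSC complex and is known as a glucocorticoid- and hypoxia-induced gene. It stood at 7.64, 8.77 and 10.8 CPM in 1wk SBI and at 11.0, 16.0 and 15.9 in 1wk SBI + Lac. The lowest lactating library was barely above the highest non-lactating one. Its log2 difference of 0.66 was the largest of the 10 at 1 week but had a wide interval (0.15 to 1.17, SE 0.24, edgeR adjusted p 0.155). At 3 weeks Ddit4 stood at 14.0, 9.16 and 11.5 without and at 17.2, 15.8 and 8.24 with lactation, and the lowest of all 6 libraries was a lactating one. The log2 difference was 0.31 (SE 0.25, edgeR adjusted p 0.501). Ddit4 had the widest spread of the 10 after centring on each time point, with an SD of 0.41 on the log2 scale.

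Deptor (ENSRNOG00000004328) codes for a subunit of both complexes that inhibits the kinase. It stood at 192, 177 and 224 CPM in 1wk SBI and at 240, 248 and 229 in 1wk SBI + Lac, a log2 difference of 0.27 (SE 0.12, edgeR adjusted p 0.218) with no overlap. At 3 weeks it stood at 188, 199 and 162 without and at 192, 172 and 188 with lactation. These groups overlapped throughout, and the log2 difference was 0.01 (95% interval -0.24 to 0.26).

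**Figure D2:**
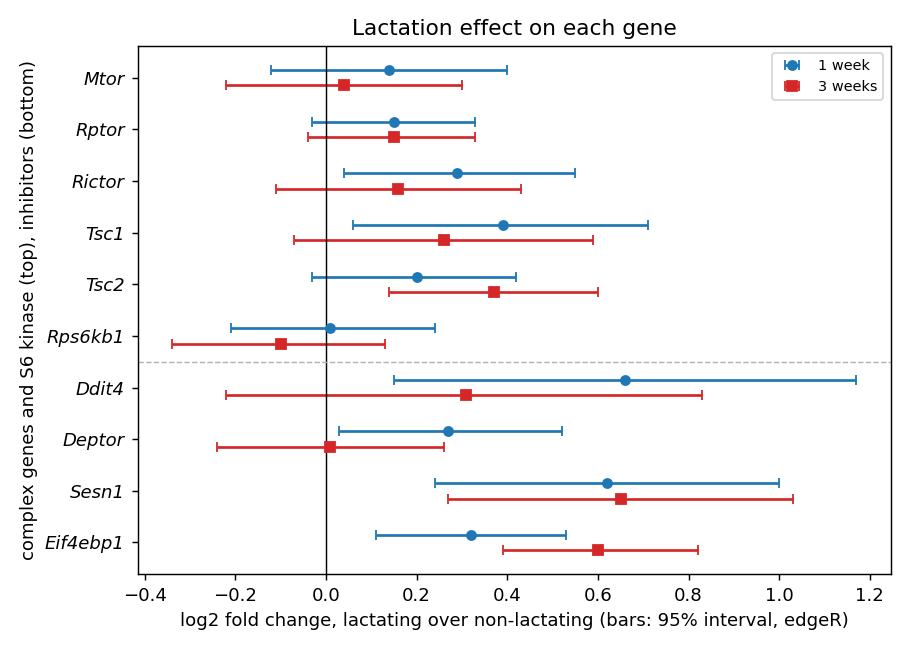
Log2 fold change with lactation (x axis, edgeR estimate with 95% interval) for each gene (y axis) at 1 week (circles) and 3 weeks (squares), complex genes and S6 kinase above the dashed line and inhibitors below. The intervals of Sesn1 and Eif4ebp1 lie above 0 at both times, and those of Mtor and Rps6kb1 span 0 at both.

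In counts over the 10 genes, every lactating library lay above every non-lactating one for 8 genes at 1 week, all but Mtor and Rps6kb1, where 14.3% of all genes showed this pattern. At 3 weeks it held for 4 genes, Rptor, Tsc2, Sesn1 and Eif4ebp1, against 11.9% of all genes. The members share libraries and are not independent of each other, so these counts describe the libraries and carry no test. The change of the lactation effect between the time points was tested as an interaction in edgeR. It called 0 of 10 genes, where 0.00685% of all genes were called, and 0 had an unadjusted p under 0.05, against 4.42% of all genes. DESeq2 on all 12 libraries also called 0, against 0.0865% of all genes. The largest positive change was that of Eif4ebp1, at 0.28 (95% interval -0.02 to 0.58), and the largest negative ones were those of Ddit4, at -0.36 (-1.09 to 0.38), and Deptor, at -0.27 (-0.62 to 0.09). A lactation effect that differs between 1 and 3 weeks was thus not detected for any of the 10, and the intervals leave room for sizeable ones.

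Between the time points, Sesn1 and Eif4ebp1 rose both without and with lactation. Sesn1 was 1.69-fold higher in 3wk SBI than in 1wk SBI (log2 difference 0.76, SE 0.18, edgeR adjusted p 0.0277) and 1.73-fold higher in 3wk SBI + Lac than in 1wk SBI + Lac (0.79, SE 0.18, 0.04). Eif4ebp1 rose 1.29-fold without lactation (0.37, SE 0.10, edgeR adjusted p 0.0454) and 1.58-fold with it (0.66, SE 0.10, 0.00508). The remaining 8 genes were not called by edgeR over all 12 libraries in either comparison, where 5.05% and 2.01% of all genes were called. Among them, all 3wk SBI + Lac libraries lay below all 1wk SBI + Lac libraries for Deptor, whose mean was 184 ± 10.1 against 239 ± 9.70 CPM (log2 difference -0.38, SE 0.12, edgeR adjusted p 0.103), and for Rptor and Rps6kb1. Over all genes, 2151 of 14599 showed this pattern. Without lactation, all 3wk SBI libraries lay below all 1wk SBI libraries for Rptor alone, and for 1658 of the 14599 genes. Other settings did call the Deptor difference with lactation: DESeq2 on all 12 libraries (adjusted p 0.0258) and on the compared ones (0.000959), edgeR on the compared ones (0.0216) and library totals alone (0.00736, log2 difference -0.57). Totals alone also called it without lactation (adjusted p 0.0184, log2 difference -0.37 against -0.11), together with Rptor. In that setting the Sesn1 call was lost both without and with lactation. The Eif4ebp1 call was lost without lactation and kept with it. The Eif4ebp1 call with lactation held with each library left out (edgeR adjusted p 0.0191 to 0.0422). The Sesn1 call with lactation was lost with any of the 6 left out (0.0598 to 0.178). Without lactation the Sesn1 call was lost in 4 of 6 such fits and kept without replicate 3 of either group, and the Eif4ebp1 call was kept only without replicate 3 of 3wk SBI. These comparisons share libraries with the lactation comparisons, and time cannot be told apart from the change in counting.

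The windows before the annotated starts of the sestrin genes and Ddit4 are shown because the fitted lactation differences of these sestrins had opposite signs and Ddit4 varied most. They come from RefSeq, build GRCr8, 250 bases each on the gene's strand, and 7 of the 10 members had a window; Rptor, Deptor and Eif4ebp1 had none. Sesn1 lies at chr20:46948469-46948718 on the plus strand, Sesn3 at chr8:19415177-19415426 on the plus strand and Ddit4 at chr20:28437038-28437287 on the minus strand. Capitals mark CCAAT boxes, all read here on the opposite strand as ATTGG.
Sesn1: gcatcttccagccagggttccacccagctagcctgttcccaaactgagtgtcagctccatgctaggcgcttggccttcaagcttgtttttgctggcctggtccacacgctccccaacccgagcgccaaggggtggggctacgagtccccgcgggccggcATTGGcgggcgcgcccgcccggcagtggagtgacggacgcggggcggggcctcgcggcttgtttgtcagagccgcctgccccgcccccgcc
Sesn3: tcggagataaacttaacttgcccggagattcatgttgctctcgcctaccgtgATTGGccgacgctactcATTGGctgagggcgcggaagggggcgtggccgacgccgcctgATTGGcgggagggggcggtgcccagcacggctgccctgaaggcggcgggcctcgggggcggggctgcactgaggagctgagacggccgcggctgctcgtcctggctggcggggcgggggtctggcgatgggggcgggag
Ddit4: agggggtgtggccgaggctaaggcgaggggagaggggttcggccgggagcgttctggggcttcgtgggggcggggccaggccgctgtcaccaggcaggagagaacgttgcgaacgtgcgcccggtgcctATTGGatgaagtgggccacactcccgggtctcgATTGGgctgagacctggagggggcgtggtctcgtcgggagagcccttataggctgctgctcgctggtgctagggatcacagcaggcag
The motifs named here were searched on both strands, and none of the matches in these windows overlapped a match of another motif. A CCAAT box was found once in Sesn1 and at 2 and 3 places in Ddit4 and Sesn3, and 34.0% of 33469 RefSeq windows of this length hold 1 or more. The GC box GGGCGG was found in all of these windows and in 30.5% of all windows. The forkhead core TGTTTAC (3.21% of windows) and the E-box CACGTG (5.59%) were in none of the 7 member windows. The glucocorticoid-element motif AGAACA (17.5%) was in that of Rps6kb1 alone. A match is a run of letters and not a measured binding site.

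The sestrin and 4E-BP families were not uniform. Sesn3, another sestrin gene, stood at 49.9, 49.3 and 58.2 CPM in 3wk SBI and at 25.2, 24.9 and 35.4 in 3wk SBI + Lac, with no overlap. It fell by 0.90 on the log2 scale with lactation at 3 weeks (SE 0.16, edgeR adjusted p 0.0119), from 52.5 ± 4.98 to 28.5 ± 5.98 CPM (SD, n = 3), while Sesn1 stood higher in the same libraries. The call was lost without replicate 1 or replicate 2 of 3wk SBI + Lac (edgeR adjusted p 0.063 and 0.0597). At 1 week Sesn3 stood at 57.4, 52.7 and 61.4 without and at 50.5, 39.7 and 61.2 with lactation (log2 difference -0.18, edgeR adjusted p 0.564), and the change of its effect between the times was -0.73 (SE 0.22, unadjusted p 0.00548, adjusted p 0.999 in edgeR). Sesn2, which codes for a leucine-sensing sestrin, was low in all libraries. At 3 weeks it stood at 6.76, 5.51 and 6.37 without against 4.79, 4.86 and 2.75 with lactation (log2 difference -0.52, SE 0.24, edgeR adjusted p 0.223).

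Eif4ebp2, which codes for the related repressor 4E-BP2, stood on the same side as Eif4ebp1. Its levels were 50.1, 54.8 and 67.0 CPM in 1wk SBI against 79.0, 75.7 and 73.1 with lactation, and 73.4, 67.2 and 69.3 in 3wk SBI against 98.9, 88.2 and 89.8 with lactation. The groups did not overlap at either time, and the log2 differences of 0.41 and 0.40 (SE 0.11 each) had edgeR adjusted p of 0.0753 and 0.064. DESeq2 called it higher at both times, on all 12 libraries and on the compared ones (adjusted p 0.0195 and 0.0355 at 1 week). Eif4ebp3 differed little, with log2 differences of 0.04 and 0.15 (edgeR adjusted p 0.879 and 0.473). Of the other sensors, Ddit4l, a paralog of Ddit4 known as REDD2, had log2 differences of 0.48 and 0.13 (edgeR adjusted p 0.315 and 0.807), and the arginine sensor genes Castor1 and Castor2 lay between 0.03 and 0.39 with edgeR adjusted p from 0.33 to 0.951.

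**Figure D3:**
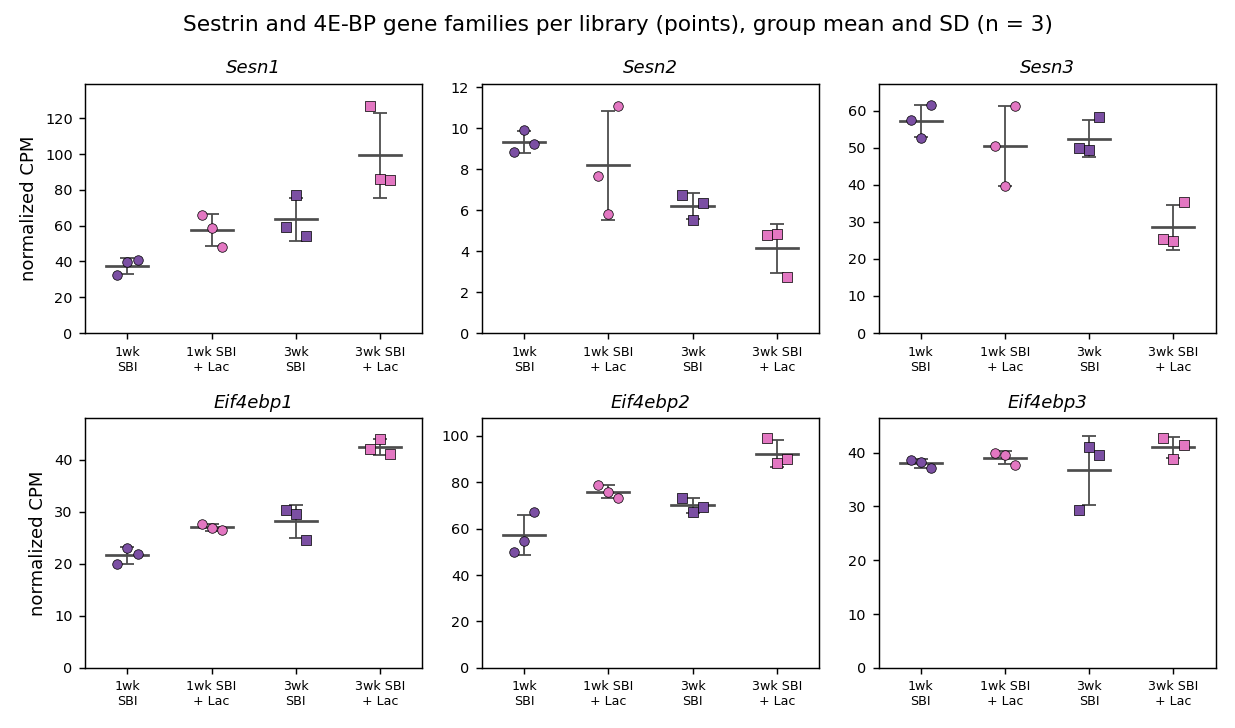
Normalized CPM (y axis, from 0) of the 3 sestrin genes (top) and the 3 4E-BP genes (bottom) by group (x axis), with points for libraries and bars for mean and SD (n = 3). At 3 weeks the lactating libraries are the higher ones for Sesn1, Eif4ebp1 and Eif4ebp2 and the lower ones for Sesn2 and Sesn3.

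The rest of the pathway was described with 77 further genes listed by role, of which 73 symbols were in the table and 74 rows were tested. These genes were listed with earlier results of these data known, so their counts are a description. At 1 week edgeR called 0 of 74, against 0.569% of all genes. Of the 74, 53 were higher and 21 lower, against 7219 and 7377 of all 14599, with a median log2 difference of 0.12. At an unadjusted p under 0.05 in edgeR there were 16, against 18.9% of all genes. DESeq2 called 5 of 74 on all 12 libraries (Eif4a1 lower, Eif4ebp2, Nprl3, Rragd and Stk11 higher) and 8 on the compared libraries, against 5.55% and 9.2% of all genes. At 3 weeks edgeR called 1 higher, Pik3r1, and 1 lower, Sesn3, against 2.54% of all genes, with a median of 0.10. DESeq2 called 8 of 74 on all 12 libraries (Irs1 and Sesn3 lower, Akt2, Eif4ebp2, Insr, Lamtor2, Pik3r1 and Rragd higher). On the compared libraries it called 6 of 73, the same genes without Irs1 and Lamtor2. These shares stand against 7.62% and 5.39% of all genes. Pik3r1 codes for the p85 regulatory subunit of PI3-kinase, upstream of Akt and mTOR. It stood at 62.0, 49.7 and 46.6 CPM in 3wk SBI and at 110.3, 74.1 and 85.0 in 3wk SBI + Lac, with no overlap. It rose 1.71-fold (log2 difference 0.77, SE 0.16, edgeR adjusted p 0.0253), and the call was lost without replicate 2 or 3 of 3wk SBI or replicate 1 or 3 of 3wk SBI + Lac (0.056 to 0.112).

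In each of the remaining lists the gene with the smallest p is given, and none of these passed in edgeR. Among the 7 complex partners, Akt1s1, which codes for the mTORC1 inhibitor PRAS40, had a log2 difference of 0.33 at 1 week (edgeR adjusted p 0.119), and Tti1, an assembly factor, 0.22 at 3 weeks (0.323). Of the 3 TSC and Rheb genes, Tbc1d7, the third TSC subunit, had 0.20 at 1 week (edgeR adjusted p 0.469), and Rhebl1 had -1.33 at 3 weeks (0.29) at a mean under 1 CPM in both groups. Rragd, one of the Rag GTPases that bring mTORC1 to the lysosome, stood at 50.0, 50.5 and 67.0 CPM in 1wk SBI against 92.1, 84.2 and 71.6 with lactation. Its log2 difference was 0.57 at 1 week and 0.51 at 3 weeks (edgeR adjusted p 0.07 and 0.0752). Nprl3, a subunit of GATOR1 that inhibits the Rag GTPases, had 0.52 and 0.43 (edgeR adjusted p 0.0745 and 0.108).

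On the output side, Eif4a1, the helicase of the cap-binding complex, was lower with lactation at 1 week by a log2 difference of -0.47 (edgeR adjusted p 0.0698). Rps6, the S6 kinase substrate, had 0.31 at 3 weeks (0.191) for the 1 of its 2 rows in the table that was tested. Atg101, a subunit of the autophagy-starting ULK1 complex, had 0.33 and 0.27 (edgeR adjusted p 0.127 and 0.195). On the input side, the insulin receptor gene Insr had 0.41 at 1 week (edgeR adjusted p 0.145). At 3 weeks, where Pik3r1 was the called gene of its list, Insr had 0.54 (edgeR adjusted p 0.0642). Stk11, which codes for the AMPK-activating kinase LKB1, had 0.33 and 0.23 (edgeR adjusted p 0.0981 and 0.192).

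Genes known to respond to regulators that also act on Ddit4 and the sestrins were set beside the members. Of 10 glucocorticoid-responsive genes, edgeR called 3 higher with lactation at 1 week and 2 at 3 weeks, and none lower, against 0.569% and 2.54% of all genes called in either direction. DESeq2 on all 12 libraries called 7 at 1 week and 3 at 3 weeks, against 5.55% and 7.62% of all genes, and on the compared libraries 6 and 4, against 9.2% and 5.39%, each of them higher. This list and the FoxO and ATF4 lists below were drawn up with earlier results of these data known, so their counts are a description. In the edgeR fit 9 of the 10 glucocorticoid-responsive genes were higher with lactation at 1 week and 7 at 3 weeks. Sgk1 was lower at both times (log2 differences -0.13 and -0.25), and Klf15 and Pdk4 were lower at 3 weeks only. Pdk4 had 1.58 at 1 week (edgeR adjusted p 0.135) and -1 at 3 weeks (0.28). At 3 weeks it was lower in every lactating library, with means of 234 against 466 CPM. Fkbp5, a co-chaperone of the glucocorticoid receptor, stood at 6.41, 6.12 and 7.10 CPM in 1wk SBI against 17.8, 22.6 and 11.9 with lactation, and at 17.8, 13.4 and 14.3 in 3wk SBI against 46.2, 31.4 and 38.1 with lactation. It rose 2.66-fold at 1 week and 2.57-fold at 3 weeks (edgeR adjusted p 0.0146 and 0.00777). Tsc22d3, which codes for GILZ, rose 1.76-fold at 1 week (edgeR adjusted p 0.0247), and Cebpd rose 1.90-fold and 2.06-fold (0.0474 and 0.0151). At 1 week these calls were lost in 3 (Fkbp5), 4 (Tsc22d3) and 5 (Cebpd) of the 6 fits with 1 library left out, each time including those without replicate 1 or 2 of 1wk SBI or replicate 1 of 1wk SBI + Lac. At 3 weeks Fkbp5 kept its call in all 6, and Cebpd lost it without replicate 1 or 2 of 3wk SBI + Lac. Of 7 FoxO-responsive genes edgeR called 0 at either time, with 2 and 3 at an unadjusted p under 0.05, against 18.9% and 21.1% of all genes. DESeq2 called at most 1, on the compared libraries (Bnip3 higher at 1 week, Cdkn1a lower at 3 weeks), against 9.2% and 5.39% of all genes. Gadd45a had the smallest p at 1 week (log2 difference -0.64, edgeR adjusted p 0.137) and Foxo3 at 3 weeks (0.35, 0.157). Of 7 ATF4-responsive genes edgeR called 0, with 1 and 2 at an unadjusted p under 0.05, against 18.9% and 21.1% of all genes. DESeq2 tested 5 or 6 of them and called at most 2, Atf4 higher and Psat1 lower at 3 weeks on all 12 libraries. It called 7.62% of all genes there. On the compared libraries DESeq2 called Asns lower at 1 week (adjusted p 0.0152), against 9.2% of all genes. Asns had -1.26 at 1 week (edgeR adjusted p 0.181) and Psat1 -1.46 at 3 weeks (0.0999).

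The mature myofiber markers moved the same way as most members. Their sum per library, averaged on the log2 scale, was higher with lactation by 0.56 at 1 week and 0.43 at 3 weeks. Over the same comparisons, 7 fibroblast markers summed to 7287 to 10520 CPM in 1wk SBI and 4330 to 7922 in 1wk SBI + Lac, and to 3559 to 8021 in 3wk SBI and 2135 to 3058 in 3wk SBI + Lac. The 10 macrophage markers summed to 544.4 to 577.9 and 343.8 to 480.9 CPM at 1 week and to 394.7 to 888.4 and 363.3 to 605.3 at 3 weeks. The 6 markers of regenerating fibers summed to 1462 to 3422 and 826.1 to 1268 CPM at 1 week and to 294.8 to 807 and 246.5 to 294.5 at 3 weeks, and 5 erythroid markers to 242.3 to 413.9 and 556 to 779.8 CPM at 1 week. None of the markers of these lists was at 0 in any group at 1 week. The sums of the macrophage markers at 1 week, the fibroblast markers at 3 weeks and the regenerating fiber markers at both times lay lower in every lactating library. The endothelial, adipocyte, smooth muscle and T cell sums overlapped at both times. Milk protein genes were at 0 in all 1wk SBI libraries and summed to 0.557 to 2.80 CPM in 1wk SBI + Lac and to 0.330 to 36.8 in 3wk SBI + Lac. The part of these shifts in the members' differences was not tested.

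The levels were also expressed relative to the myofiber sum. Each member's CPM was divided by the marker sum of its library and expressed per 100000 marker CPM, a scaling chosen after the values were seen and given with no test. By construction it lowers the lactation difference of every gene by about the 0.56 and 0.43 above. On this scale every lactating library lay above every non-lactating one for 0.452% of all genes at 1 week and 0.952% at 3 weeks, and below for 39.1% and 40.7%. At 1 week the libraries overlapped for all 10 members. At 3 weeks Eif4ebp1 was higher in every lactating library, at 19.9 ± 0.794 against 17.8 ± 1.18 (SD, n = 3), a log2 difference of 0.17. Sesn1 overlapped, at 46.6 ± 10.3 against 39.8 ± 3.42. Mtor at 33.8 ± 1.27 against 44.3 ± 2.03, Rps6kb1 at 27.8 ± 2.59 against 40.1 ± 2.79, and Deptor at 86.5 ± 9.27 against 115 ± 6.11 were lower in every lactating library on this scale, and the remaining 5 overlapped too.

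**Figure D4:**
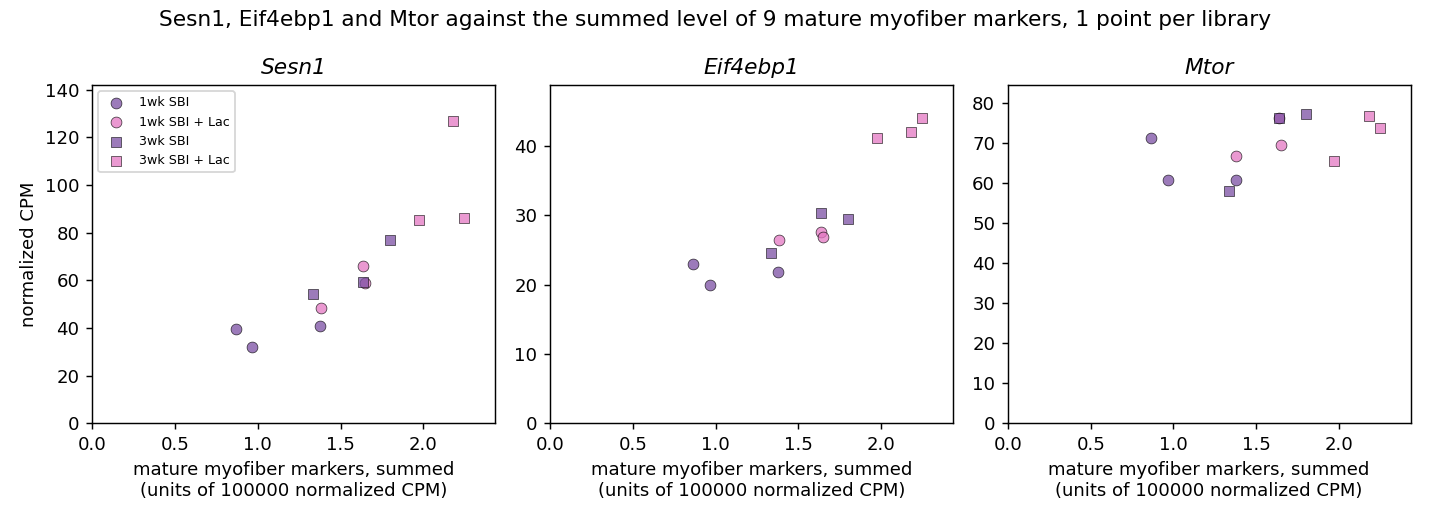
Normalized CPM of Sesn1, Eif4ebp1 and Mtor (y axes, from 0) against the summed level of 9 mature myofiber markers (x axis, in units of 100000 normalized CPM), 1 point per library. The 3wk SBI + Lac libraries have the highest marker sums, 197200 to 224700 CPM, and the highest Sesn1 and Eif4ebp1 levels, whereas Mtor stays between 57.9 and 77.3 CPM over all libraries.

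The genes most like the members that varied most were found by the root mean square difference of log2 normalized CPM over the 12 libraries, after centring on each time point. For Sesn1 these were Slc43a1, a transporter of large neutral amino acids (0.12), Pnrc1 (0.13) and the insulin receptor gene Insr (0.13). For Ddit4 they were Ikzf2 (0.20), Odf2l (0.21) and Gpat3 (0.21). The 12 points share depth and the marker shifts above, and the likeness is a description of these libraries.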

How the data were processed

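The authors sequenced stranded mRNA libraries and deposited 1 gene table with no normalization: whole counts in the 1-week columns and expected counts, that is estimated counts with decimals, in the 3-week columns, rounded here for the tests, although the tests had been planned for whole counts. The submitters' processing notes list Salmon, with no version; aligner, genome build and annotation are not given in the sources used here. Columns were matched to the 12 samples by the names in their labels. Libraries of 1 group differed by more than counting noise; whether the pools vary as separate rats would is not given, so p-values measure the spread between pools.

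edgeR 4.0.16 (R 4.3.3) used TMM scaling, filterByExpr, a robust quasi-likelihood fit over 4 groups and Benjamini-Hochberg adjustment over 14599 genes, with calls at an adjusted p under 0.05. Intervals (95%) come from the SE and total degrees of freedom. log2 CPM used a prior count of 2. DESeq2 1.42.0, other normalizations, no filter, only the compared libraries, a replicate block, thinning and each library left out were alternatives; totals alone and the myofiber scaling were added after seeing the data. All members are named, then listed pathway genes called in a lactation comparison (else the smallest p), and the 3 genes most like each of the 2 most variable members. The members and lists were chosen with earlier results of these data known. The code was tested on simulated data. A depth of 10082734 counts or more per library limits precision for counting error only.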

Additional observations from a re-analysis of the deposited data

How the results depend on the processing

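For the 10 genes at 1 week, edgeR's 0 calls became 1 with DESeq2 on all 12 libraries and 2 with DESeq2 on the compared libraries. At 3 weeks the 1 call became 0 with library totals alone, 3 and 2 with DESeq2 on all and on the compared libraries, and 1 to 2 with 1 library left out. For 3 weeks against 1 week, the 2 calls without lactation became 1 with no filter, 1 with DESeq2 on the compared libraries, 1 in another random draw of the thinned counts (added after seeing the data; the first gave 2), 0 with edgeR on those libraries, and 0 to 3 with 1 library left out; with lactation the 2 calls became 1 in every fit with 1 library left out and 3 (Deptor added) with DESeq2 on all and on the compared libraries and with edgeR on the latter. With the replicate number as a block, the members called were 0 and 1 for lactation at 1 and 3 weeks, 0 for the interaction and 1 for each time comparison; pairs with 1 number correlated at -0.23 to -0.05, so the samples share only a number. With totals alone the log2 difference turned negative for Mtor (-0.12), Rptor (-0.09), Tsc2 (-0.05), Rps6kb1 (-0.23) and Tbc1d7 (-0.04) at 1 week, and for Mtor (-0.12), Rptor (-0.03), Rictor (-0.01) and Deptor (-0.16) at 3 weeks. By construction this setting shifts all genes. The members it called between the times were Rptor and Deptor without and Deptor and Eif4ebp1 with lactation. Upper-quartile scaling gave 0 for Rps6kb1 at 1 week and -0.01 for Deptor at 3 weeks, and edgeR on the compared libraries gave -0.01 for Deptor. With 1 library left out, Rps6kb1 at 1 week ran from -0.04 to 0.11, Mtor at 3 weeks from -0.09 to 0.12 and Deptor at 3 weeks from -0.07 to 0.08. Of the gene-level values, 774 kept direction and side of the threshold, 55 lost and 36 gained a call, and 20 changed sign; beyond totals alone, the cause was not tested. Over all genes, calls with lactation ran from 2 to 1372 around 83 at 1 week and from 58 to 1065 around 371 at 3 weeks; for the interaction from 1 to 15 around 1; and between times from 102 to 2083 around 737 without and from 41 to 1371 around 293 with lactation. With totals alone, 12 of 36 calls at 1 week and 69 of 343 at 3 weeks were higher, against 49 of 83 and 197 of 371. Depth limits low genes such as Rhebl1 and Psat1. The median shift of all genes was -0.26 and -0.20 between times with totals alone.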
